A study of Sus scrofa with 55 samples.

Results

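The genes of cholesterol synthesis and sterol handling were followed in oocytes of the pig. The set was a list of 28 gene symbols, and its members were the rows of the count table whose Ensembl ID carries a listed symbol. Of these symbols, 27 matched among 25880 IDs, of which 14857 have a symbol, and PMVK is not analysed here. By role, 7 members belong to the mevalonate arm, 11 to the arm from squalene to sterols, 5 to sterol sensing and 4 to sterol transport and storage.

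The cytoplasmic RNA of 55 oocytes from 4 gilts was amplified by Smart-seq2, which copies full-length transcripts of a cell into cDNA, here with 16 PCR cycles. The gilts were wild-type pubertal Landrace and Yorkshire pigs aged 208 to 210 days, and all had been injected with PMSG, the serum gonadotropin of pregnant mares, which stimulates follicles to grow (5 IU, 48 h before ovary collection). The groups were 5 antral follicle stages with 11, 12, 11, 11 and 10 oocytes from stage 1 to stage 5. There was no group without PMSG, and gilt 801 gave no oocyte at stage 5, so each stage rests on 3 or 4 animals.

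Cholesterol is built from acetyl-CoA through mevalonate and isoprenoid units to squalene, which is closed into a ring and trimmed to cholesterol. The SREBP transcription factors, escorted by SCAP and held in the endoplasmic reticulum by the INSIG proteins, raise the transcription of the pathway when membrane sterol is low. In mouse follicles the oocyte is known to make little cholesterol itself and to obtain sterol from the cumulus cells, the granulosa cells that surround it. Transcripts of these genes in an oocyte library can therefore come from the oocyte or from attached granulosa cells, and INHA (the inhibin alpha subunit) and CYP11A1 (the enzyme that opens steroid synthesis from cholesterol) were read in the same libraries as granulosa genes.

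The libraries held 151104 to 38282850 counts, with a median of 12139540. The oocyte genes ZP3, a zona pellucida protein, and GDF9, a growth factor secreted by the oocyte, had at least 3 counts in all 55 libraries, with medians of 4951 and 832 counts per 1000000 counts (CPM). The share of counts from the 13 mitochondrially encoded genes ran from 2.104% to 91.8%. Levels are therefore also given as nuclear CPM, per 1000000 counts without those genes. In 13 libraries, 12 of them from gilt 803, the summed counts of 23 measured granulosa and cumulus markers exceeded those of 15 oocyte genes, and these are called granulosa-rich. They numbered 3, 1, 3, 4 and 2 from stage 1 to stage 5. The other 42 libraries still held up to 11503 CPM of the granulosa and cumulus markers. Under 1000000 counts were held by 3 libraries of gilt 803, 2 at stage 1, both granulosa-rich, and 1 at stage 2. Another 3 libraries of gilt 801, 1 at stage 2 and 2 at stage 4, resembled each other more than any other pair did (r of 0.963 to 0.981, against 0.897 for the next pair). Their counts differed by more than the sampling of reads. PCR copies can differ in this way too, so this cannot show that they are separate oocytes, as their labels have them. Over all 55 libraries the summed markers ran from 31.9 to 32449 CPM for granulosa and cumulus cells, from 0.213 to 6363 CPM for theca and stroma, and from 0.0763 to 10559.9 CPM for blood, immune and endothelial cells.

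The members were detected unevenly, and FDFT1 stood out. FDFT1 encodes squalene synthase, which joins farnesyl units into squalene and commits them to sterols. Its level over the 55 oocytes ran from 0 through a median of 173 to 2506 CPM, and 53 libraries held at least 3 of its counts. FDFT1 took a median of 36.5% of all member counts in a library and was the member with most counts in 38 of 55 libraries. Counts grow with transcript length, so levels of different genes were also compared in the deposited length-scaled table, rescaled to the same total in each oocyte (1000000). There, too, FDFT1 had the highest median of the 24 members listed (19.4), followed by HSD17B7 (13.6) and NSDHL (11.3).

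**Figure D1:**
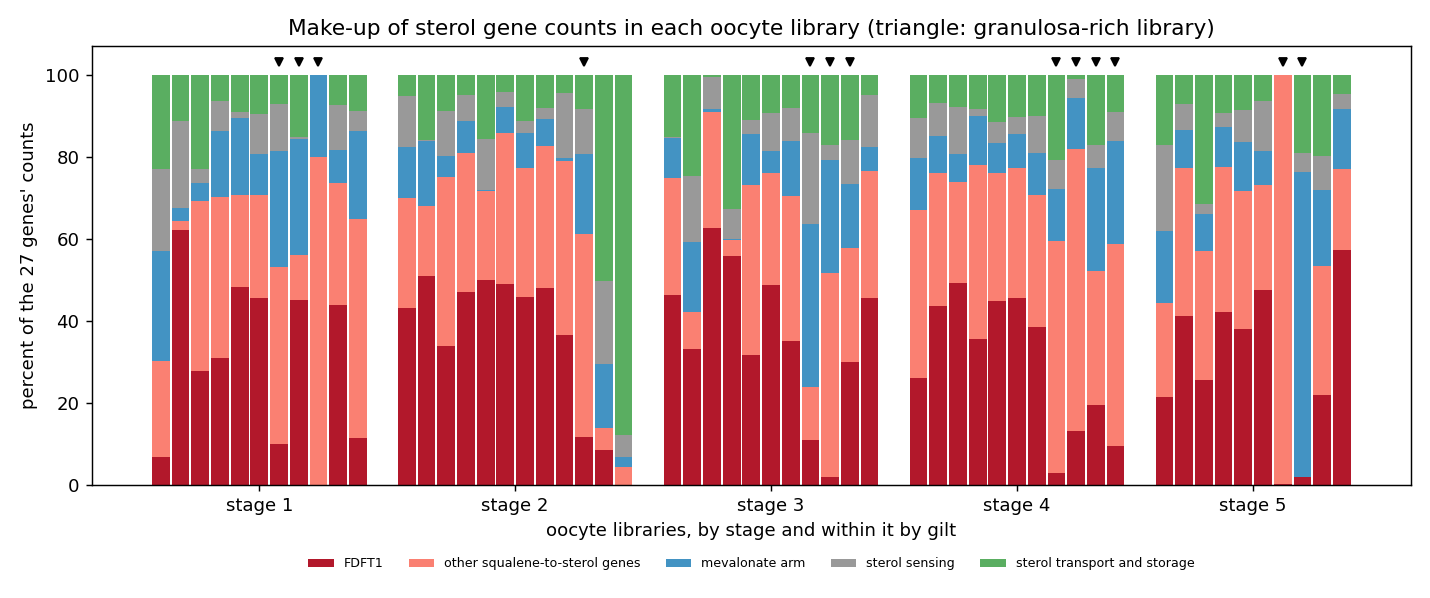
Make-up of the counts of the 27 sterol genes in each of the 55 oocyte libraries (bars, percent of the genes' counts), ordered by stage and within a stage by gilt; triangles mark granulosa-rich libraries. FDFT1 (red) had a median share of 43.3% in the 42 other libraries and of 10.0% in the 13 granulosa-rich ones.

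The make-up differed between kinds of library. FDFT1 was the leading member in 36 of the 42 libraries that were not granulosa-rich and in 2 of the 13 that were. Its median share was 43.3% in the former and 10.0% in the latter. The 27 genes together reached medians of 489 and 1809.5 CPM in these libraries, and the highest sum, 6867 CPM, belonged to a library that was not granulosa-rich. These are descriptions of libraries sorted by their own RNA, with no test.

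In the arm from squalene to sterols, the enzymes after FDFT1 fell into an abundant and a sparse set. NSDHL, HSD17B7 and MSMO1, which act together in the removal of methyl groups from the early sterols, had medians of 37.9, 26.0 and 20.8 CPM. Their highest values were 1435, 1061 and 1159 CPM. SQLE, the squalene epoxidase, had a median of 19.9 CPM and reached 301 CPM. These 4 genes had at least 3 counts in 48, 49, 45 and 49 of the 55 libraries. EBP, the sterol isomerase, had a median of 7.26 CPM, and its highest library, at stage 1 of gilt 803, alone held 44.5% of its summed CPM. The remaining enzymes were low in most oocytes. CYP51A1, the lanosterol demethylase, had a median of 1.16 CPM but a highest value of 674 CPM. DHCR7, which makes cholesterol from its direct precursor, also had a median of 1.16 CPM, with 294 CPM in the highest library. LSS, the cyclase that closes squalene epoxide into lanosterol, and the enzymes TM7SF2 and SC5D had medians of 0.768, 0.413 and 0.254 CPM, and SC5D reached 3 counts in 26 libraries.

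In the mevalonate arm IDI1, which isomerises the isoprenoid unit, was at 8.73 in the length-scaled table, against 19.4 for FDFT1. On CPM it had the highest median, 18.05 CPM, with 924 CPM in the highest library. GGPS1, which makes the geranylgeranyl chain used to anchor proteins, had a median of 11.9 CPM and reached 183 CPM. MVK, which phosphorylates mevalonate, had a median of 5.11 CPM, and a stage 5 library of gilt 803 with 582 CPM held 41.0% of its summed level. MVD, the decarboxylase after it, had a median of 4.54 CPM. HMGCS1, the synthase that makes HMG-CoA, had a median of only 2.70 CPM and reached 560 CPM. ACAT2, the cytosolic thiolase that makes acetoacetyl-CoA, had a median of 0.229 CPM, reached 492 CPM and was at 0 counts in 21 libraries. FDPS, the farnesyl diphosphate synthase, had 0 counts in 35 libraries and never exceeded 22.1 CPM, whereas the length-scaled table placed it the sixth of 24 members. Its level is therefore uncertain here.

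Among the sensors, SREBF2, the SREBP factor tied most closely to cholesterol synthesis, had a median of 11.8 CPM and reached 1069.6 CPM. SCAP had a median of 8.15 CPM. SREBF1, the factor tied more to fatty acid synthesis, had a median of 0 and a highest value of 2.91 CPM, and 17 libraries held at least 3 of its counts. INSIG1 and INSIG2 had medians of 1.06 and 1.45 CPM and reached 204 and 262 CPM. For transport and storage, NPC1, the membrane protein that exports cholesterol from lysosomes, had a median of 18.9 CPM, and NPC2, its soluble partner, a median of 5.05 CPM. SOAT1, which esterifies cholesterol for storage, had a median of 10.97 CPM. STARD4, a carrier of cholesterol between membranes, was at 0 counts in 35 libraries and reached 294 CPM.

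Much of the high signal of some members came from gilt 803, which gave 20 of the 55 oocytes. That animal held 95.4% of the summed CPM of STARD4, 90.1% of ACAT2, 89.98% of HMGCS1 and 89.8% of CYP51A1. It held 38.2% of GGPS1, 37.9% of FDFT1 and 36.1% of SCAP. HMGCS1 had medians of 0.432, 3.63, 3.07 and 12.96 CPM in gilts 201, 205, 801 and 803. FDFT1 had medians of 54.2, 253, 249 and 236 CPM in the same order. FDFT1 was thus lowest in gilt 201, where the mitochondrial share was never under 50.98%. On the nuclear scale its medians were 374, 1064, 1252 and 399.5 CPM, with gilts 201 and 803 alike.

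**Figure D2:**
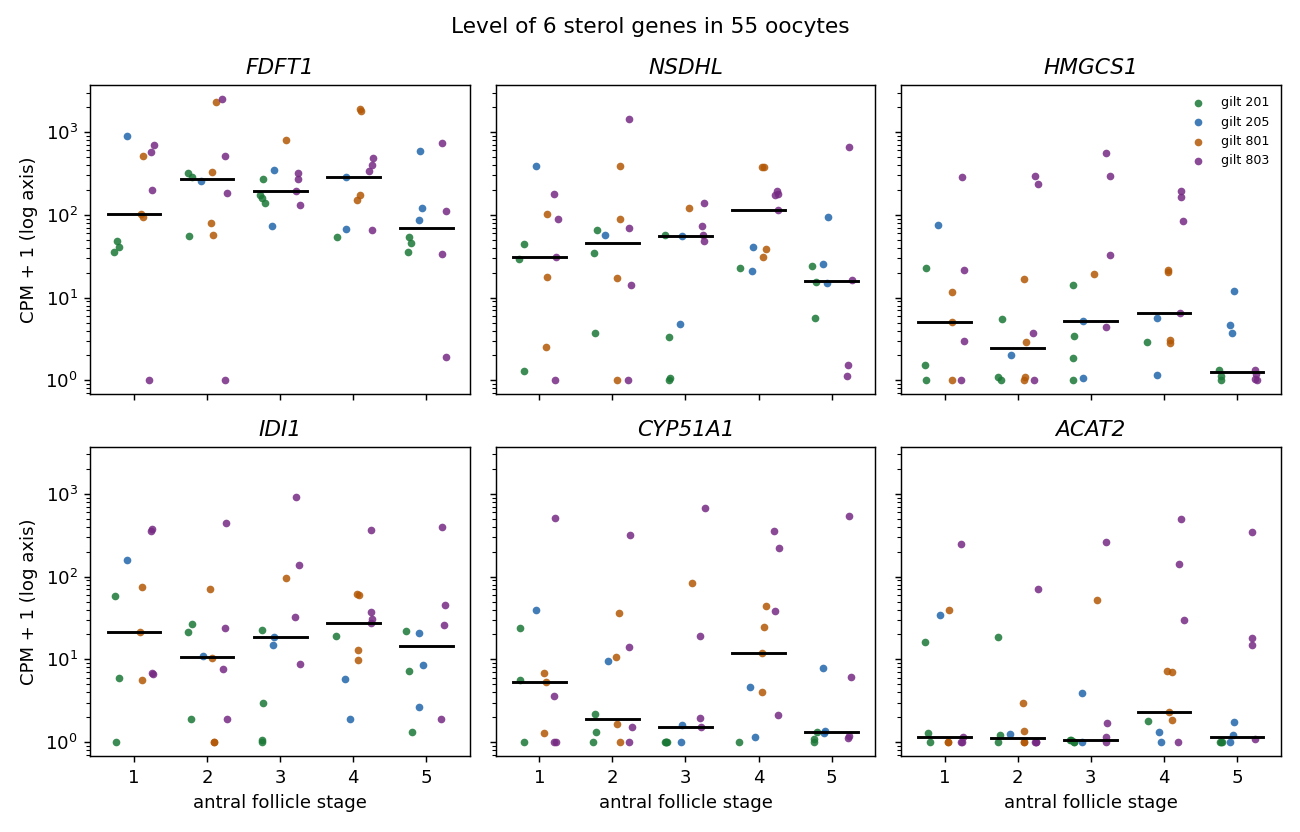
Level of 6 sterol genes (CPM + 1, log axis) in each of the 55 oocytes by follicle stage; points are oocytes coloured by gilt and black lines are stage medians. FDFT1 lay between 53.3 and 1881 CPM in all stage 4 oocytes. HMGCS1 stayed at or under 10.9 CPM in all 10 stage 5 oocytes. Its highest values at the earlier stages, 194 to 560 CPM, all came from gilt 803. HMGCS1 reached at most 22.0, 74.0 and 20.6 CPM in gilts 201, 205 and 801.

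Stage 4 oocytes held the members most evenly. At least 3 counts were found in all 11 stage 4 oocytes for 10 members: FDFT1, SQLE, MSMO1, NSDHL, HSD17B7, EBP, IDI1, GGPS1, NPC1 and SOAT1. At stage 5 this held in all 10 oocytes for FDFT1 and IDI1. At stage 1 it held in all 11 oocytes for none, and FDFT1, NSDHL and HSD17B7 reached it in 10. The median number of members with 3 counts was 23, 17.5, 22, 23 and 17 from stage 1 to stage 5. The 27 genes together had stage medians of 1019, 668, 709, 2202 and 395 CPM, highest at stage 4, and of 1761, 3439, 2296, 2609 and 1788 nuclear CPM, highest at stage 2. The median mitochondrial share was 50.98%, 76.1%, 73.9%, 9.05% and 73.3% in the same order, lowest at stage 4, and its part in the order of CPM levels was not tested. The shallowest library held 220085 counts at stage 1, 151104 at stage 2 and 8153435 at stage 4, so detection at the early stages also rests on less depth.

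The comparison of stages asked whether sterol genes change as the follicle grows. No member passed the test between stage 5 and stage 1, so the values below are fitted differences with their errors and not called changes. Counts were summed per gilt and stage into 19 sums, because the animal is the replicate, and fitted with edgeR with the gilt in the model. At an adjusted p under 0.05, edgeR called 0 of 27 members and 0% of the 15637 genes tested. At an unadjusted p under 0.05 there were 840 genes (5.37%) and 2 members (7.41%). DESeq2 called 270 genes and 0 members.

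FDFT1 did not pass the test between the ends of the series. Its levels in the stage 1 sums were 69.0, 249, 190 and 279 CPM in gilts 201, 205, 801 and 803, after TMM scaling, edgeR's correction for library composition. In the stage 5 sums they were 128, 279 and 231 CPM in gilts 201, 205 and 803. The 2 groups of sums overlapped, and the fitted log2 change was 0.19 ± 0.69 (SE; edgeR, adjusted p = 0.9996). Between these ends, the stage 2 sums held 556, 594, 585 and 231 CPM, with gilt 803 below the other animals. The mean over gilts was 197 ± 92.8 (SD, n = 4), 491 ± 174, 418 ± 220.5, 233 ± 139.99 and 213 ± 76.6 (n = 3) from stage 1 to stage 5. NSDHL had a log2 change of 0.00 ± 0.65. Without TMM factors, which lowered the median change of all genes from -0.27 to -1.16, the change was -0.55 for FDFT1 and -1.17 for NSDHL.

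HMGCS1, CYP51A1, ACAT2 and INSIG1 had the smallest p values in the stage 5 comparison, with lower fitted levels at stage 5. HMGCS1 stood at 12.8, 20.7, 3.25 and 86.7 CPM in the stage 1 sums of gilts 201, 205, 801 and 803. At stage 5 it stood at 0.440, 6.25 and 0.0694 CPM in gilts 201, 205 and 803. It was lower in each of the 3 animals with both stages, though the sums overlapped across animals, and its log2 change was -2.77 ± 1.28 (edgeR, p = 0.0397, adjusted p = 0.904). It was -5.64 without gilt 205. In gilt 803 HMGCS1 held 76.8, 192 and 45.8 CPM at stages 2, 3 and 4, and 0.0694 CPM at stage 5, where 2 of that animal's 4 libraries were granulosa-rich. By oocyte, the highest HMGCS1 value was 286, 294, 560 and 194 CPM at stages 1 to 4 and 10.9 CPM at stage 5. The 560 CPM came from a granulosa-rich library. The 294 CPM came from a library with 10559.9 CPM of blood, immune and endothelial markers. The value of 286 CPM came from 1 of the 4 stage 1 oocytes of gilt 803. The stage 1 sum of gilt 205 was 1 oocyte, with 5524 CPM of granulosa and cumulus markers. Over oocytes the HMGCS1 median was 4.06 CPM at stage 1 and 0.267 CPM at stage 5. The drop within an animal can thus rest on 1 stage 1 library.

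CYP51A1 stood at 15.0, 10.6, 3.83 and 152 CPM at stage 1 and at 0.366, 2.44 and 74.7 CPM at stage 5 of gilts 201, 205 and 803. It was also lower in all 3 animals with both stages, with a log2 change of -3.10 ± 1.45 (edgeR, p = 0.0419, adjusted p = 0.904). ACAT2 stood at 8.75, 9.28, 6.23 and 74.0 CPM at stage 1 and at 0, 0.434 and 46.9 CPM at stage 5, a log2 change of -3.16 ± 1.56 (edgeR, adjusted p = 0.927). The change of CYP51A1 was -1.04 without gilt 201. In each of these genes the sum of gilt 803 was several times above the other animals at both stages. INSIG1, itself a target of the SREBP factors, stood at 17.7, 8.58, 0.940 and 49.9 CPM at stage 1 and at 0.366, 2.82 and 3.87 CPM at stage 5. Its log2 change was -2.58 ± 1.33 (edgeR, adjusted p = 0.927).

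**Figure D3:**
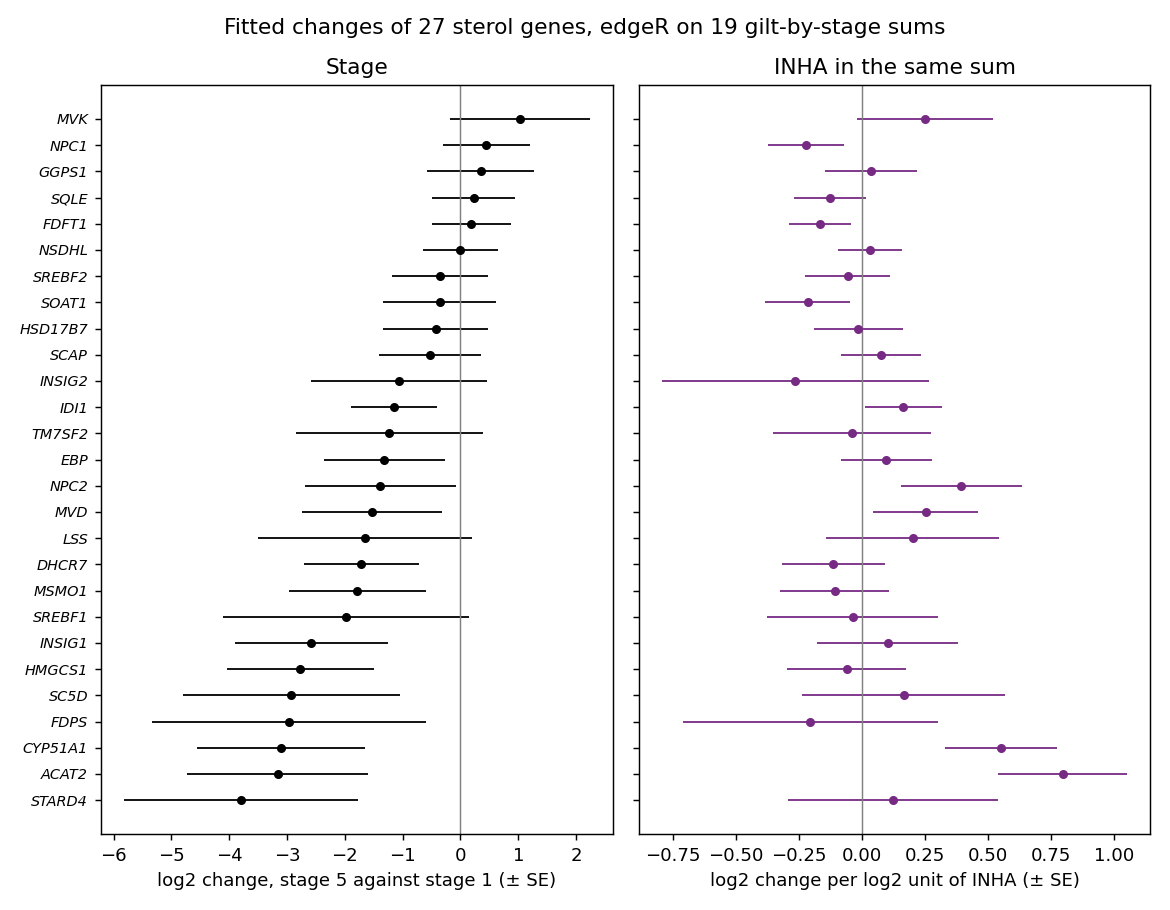
Fitted log2 changes (points, with SE bars) of the 27 sterol genes between stage 5 and stage 1 (left, negative is lower at stage 5) and per log2 unit of INHA (right), from edgeR on 19 gilt-by-stage sums. Estimates on the left ran from -3.80 for STARD4 to 1.02 for MVK, and no gene passed an adjusted p of 0.05 in either panel.

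Over the whole set, 22 of 27 members had a negative estimate, beside 57.3% of all genes tested, and the median was -1.31 against -0.27 for all genes. Without TMM factors all 27 were negative, beside 78.9% of all genes, with a median of -2.24 against -1.16 for all genes. Without the granulosa-rich libraries 24 of 27 were negative, beside 54.9% of all genes, with a median of -1.29 against -0.17. Without gilt 803 19 of 27 were, beside 58.2% of all genes, with a median of -0.78 against -0.30. The fit without granulosa-rich libraries still held stage 1 oocytes with 6611, 5524 and 10959 CPM of granulosa and cumulus markers. It therefore did not remove granulosa RNA from the contrast. In the 3 gilts with both stages, 11 of 27 members (40.7%) were lower at stage 5 in every animal, beside 15.9% of all genes tested: ACAT2, HMGCS1, MVD, IDI1 and FDPS of the mevalonate arm, CYP51A1, TM7SF2, SC5D and DHCR7 of the sterol arm, and INSIG1 and NPC2. SQLE was higher in all 3, as were 8.17% of genes. These counts describe the same contrast and carry no test. Of the 3 animals, gilt 205 gave 1 oocyte at stage 1. Neither granulosa gene passed the test in the same contrast. INHA stood at 2179.9, 417, 275 and 250.3 CPM in the stage 1 sums and at 136, 33.9 and 975 CPM in the stage 5 sums of gilts 201, 205 and 803, a log2 change of -2.71 ± 1.28 (edgeR, adjusted p = 0.904), lower at stage 5 in gilts 201 and 205 and higher in gilt 803. CYP11A1 stood at 360.4, 124, 0.138 and 348 CPM at stage 1 and at 446, 5.09 and 594.5 CPM at stage 5, higher at stage 5 in gilts 201 and 803 and lower in gilt 205 (log2 change -0.25 ± 1.42; edgeR, adjusted p = 0.9996). The summed granulosa and cumulus markers ran from 31.9 to 12931 CPM at stage 1 (median 4898) and from 67.9 to 13953 CPM at stage 5 (median 862). Their part in the lower estimates was not tested. Fewer attached cells and less RNA per cell cannot be told apart in these libraries.

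As a trend over the 5 stages, edgeR called 2 genes of 15637 (0.0128%) and 0 members. DESeq2 called 160 genes and 0 members. CYP51A1 had the smallest p of the members, with a log2 change of -0.77 ± 0.29 per stage (edgeR, p = 0.0142, adjusted p = 0.675). ACAT2 (-0.75 ± 0.34), INSIG1 (-0.45 ± 0.26) and HMGCS1 (-0.45 ± 0.28) came next. Negative slopes were fitted for 23 of 27 members, beside 57.5% of all genes, and the median slope was -0.22 against -0.06 for all genes.

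Without a fixed order of stages, edgeR called 0% of genes and 0 members as different at any stage (840 genes at an unadjusted p under 0.05), and DESeq2 called 47 genes and 0 members. STARD4, MSMO1, NPC1 and SOAT1 had the smallest p values. STARD4 had an adjusted p of 0.896 (edgeR), and its sums were at 0, 1.34, 0.848 and 52.8 CPM at stage 1 and at 0.0649, 0, 0.271 and 37.9 CPM at stage 2 of gilts 201, 205, 801 and 803. Outside gilt 803, no sum of STARD4 exceeded 10.5 CPM. MSMO1 was at 355, 284, 286 and 188 CPM at stages 1 to 4 of gilt 803 and at 1.90 CPM at its stage 5. In gilt 205 the same gene read 19.1, 90.8, 80.4, 26.9 and 35.96 CPM from stage 1 to stage 5, with no such drop. NPC1 was lowest at stage 1 in gilts 201 and 205 (9.96 and 17.2 CPM), and highest at stage 2 in gilt 201 (123 CPM) and at stage 3 in gilt 205 (41.9 CPM). SOAT1 reached 120 CPM in the stage 3 sum of gilt 201, against 15.8 to 33.7 CPM in the other animals at that stage.

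The comparison with INHA and CYP11A1 asked whether the members follow granulosa RNA in the same library. Over the 55 oocytes, INHA ran from 0 through a median of 50.6 to 8602 CPM and CYP11A1 from 0 through 10.1 to 3745 CPM. The median Pearson correlation of the members with INHA, on log2(CPM + 1), was 0.18, beside 0.06 over 12639 genes with a mean of at least 1 CPM. A correlation of 0.3 or more was reached by 6 of 27 members (22.2%) and by 18.4% of those genes. With CYP11A1 the medians were 0.14 and 0.04, and 4 of 27 members (14.8%) and 11.9% of genes reached 0.3. With all 55 oocytes on CPM, then, the members as a set lay near the share of all genes. The gap with INHA was wider in some settings. The shares were 48.1% of members and 31.6% of genes without the similar libraries, and 44.4% and 29.6% without gilt 801. In the length-scaled table they were 50% and 27.3%. Without the granulosa-rich libraries they were 14.8% and 11.6%. With CYP11A1 they were 44.4% and 23.2% without gilt 801, and 7.41% and 7.68% without gilt 803. Without the mitochondrially encoded genes the medians with INHA were 0.00 for the members and -0.10 for all genes. The points of each correlation share their library, its depth and its mitochondrial share, so the values are descriptions.

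**Figure D4:**
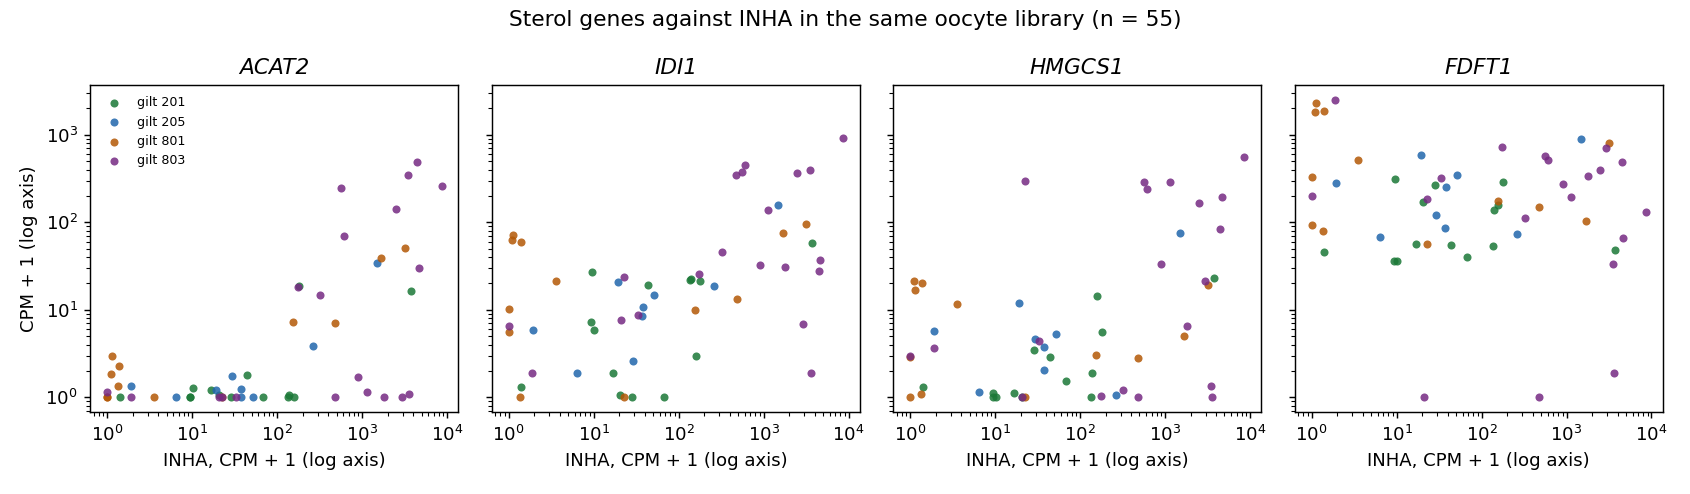
Level of ACAT2, IDI1, HMGCS1 and FDFT1 against INHA (both CPM + 1, log axes) in the 55 oocyte libraries, coloured by gilt. ACAT2 stayed at or under 2.00 CPM in the 10 libraries with less than 1 CPM of INHA, where FDFT1 lay between 45.1 and 2506 CPM.

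ACAT2 had the highest correlation of the members with INHA, a Pearson r of 0.63 and a Spearman rho of 0.52 over 55 oocytes. The r was 0.65, 0.81, 0.88 and 0.52 within gilts 201, 205, 801 and 803 (14, 9, 12 and 20 oocytes). It was 0.54 without the mitochondrially encoded genes, 0.66 without the granulosa-rich libraries and 0.59 without the 2 oocytes farthest from the median INHA. Of 12638 genes, 1.31% had a correlation with INHA at or above that of ACAT2. With CYP11A1, ACAT2 had an r of 0.47 (rho 0.27), and -0.18 within gilt 801. The gene model of ACAT2 overlaps that of TCP1, a chaperonin subunit, in the RefSeq annotation of Sscrofa11.1, and the strand setting of the counts is not given in the sources used here. TCP1 had an r of 0.32 with INHA and of 0.58 with ACAT2, so reads of the pair may have been mixed and the values of ACAT2 are uncertain. The gene models of NPC1, INSIG2, STARD4 and SC5D each overlap another model too, so the same doubt holds for them. For IDI1, CYP51A1 and LSS overlap could not be checked.

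IDI1 and HMGCS1 came next among the members, with an r with INHA of 0.52 (rho 0.53) and 0.42 (rho 0.38). For IDI1 it was 0.53, 0.79, 0.24 and 0.51 within gilts 201, 205, 801 and 803. For HMGCS1 it was 0.75, 0.43, 0.03 and 0.35 in the same order, so both were lowest in gilt 801. Without the mitochondrially encoded genes the r fell to 0.31 for IDI1 and 0.25 for HMGCS1. FDFT1 went the other way, with an r of -0.15 with INHA, and of -0.33 without the mitochondrially encoded genes. FDFT1 was not alone on that nuclear scale: GGPS1 had an r of -0.34, and 13 of 27 members and 34.9% of all genes were positive. The nuclear r of FDFT1 was 0.57 with GDF9 and 0.50 with ZP3, the highest of the members with each. On CPM these were 0.39 and 0.23. The values of all genes with GDF9 and ZP3 were not computed.

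In 10 libraries INHA was under 1 CPM. They were picked on that gene alone and were not free of granulosa RNA: their summed granulosa and cumulus markers ran from 31.9 through a median of 218 to 813 CPM, and CYP11A1 reached 489 CPM in 1 of them, at stage 5 of gilt 201. They held from 11 to 27 of the 27 members at 3 counts, with a median of 22, and in all 10 at least 3 counts were found for FDFT1, SQLE, MSMO1, NSDHL, HSD17B7, GGPS1 and SREBF2. FDFT1 ran from 343 through a median of 1504 to 2603 nuclear CPM there, NSDHL from 111 through 296 to 1490, and HSD17B7 from 16.8 through 215 to 896. HMGCS1 reached 3 counts in 8 of these libraries, with a median of 9.25 and a highest value of 21.4 nuclear CPM. ACAT2 reached 3 counts in 5 of them and never exceeded 3.37 nuclear CPM. The 3 libraries of gilt 801 that resemble each other are among the 10. They held 1812, 1881 and 2290 CPM of FDFT1, 16.0, 19.1 and 20.6 CPM of HMGCS1, and 0.836, 1.29 and 2.00 CPM of ACAT2.

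The granulosa-rich libraries held higher medians of some members and lower medians of others. On nuclear CPM, 10 of 27 members had a higher median there than in the other libraries, 14 a lower one and 3 the same. FDFT1 had a median of 215 nuclear CPM in the 13 granulosa-rich libraries and of 947 in the other 42. ACAT2 had medians of 29.7 and 0.574, HMGCS1 of 45.9 and 9.59, CYP51A1 of 26.1 and 3.25, and NPC2 of 76.0 and 18.3 nuclear CPM. Lower in granulosa-rich libraries were SQLE, with medians of 49.6 and 98.8, GGPS1, with 10.9 and 51.6, SCAP, with 1.04 and 42.96, and INSIG1, with 1.11 and 7.02 nuclear CPM. Within gilt 803, with 12 granulosa-rich libraries and 8 others, the medians were 15.4 and 0.307 for ACAT2, 65.8 and 5.09 for HMGCS1, and 295 and 846 for FDFT1. The ranges of every one of these genes overlapped between the 2 kinds of library in that animal.

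With stage and gilt held in the model, no member followed either granulosa gene at the threshold in edgeR. For the slope on INHA, edgeR called 0% of 15636 genes and 0 members (937 genes at an unadjusted p under 0.05). DESeq2 called 497 genes and 1 member. That member was ACAT2, with an edgeR slope of 0.80 ± 0.26 per log2 unit of INHA (p = 0.00447, adjusted p = 0.588) and a DESeq2 slope of 0.79 (adjusted p = 0.0186). CYP51A1 had a slope of 0.55 ± 0.22 (edgeR, adjusted p = 0.762), NPC2 of 0.39 ± 0.24 and NPC1 of -0.22 ± 0.15. The slope of NPC1 turned positive without TMM factors (0.12) and without the granulosa-rich libraries (0.02). That of ACAT2 was 1.53 without those libraries (edgeR, adjusted p = 0.173). ACAT2 rose with INHA between some sums of an animal and not between others. In gilt 801 ACAT2 was at 27.9 CPM in the stage 3 sum, where INHA was at 1759.9 CPM, and at 0.503 and 0.704 CPM in the stage 2 and stage 4 sums, where INHA was at 3.31 and 21.8 CPM. In gilt 201 ACAT2 was at 9.02 CPM in the stage 2 sum, with INHA at 117 CPM, but at 0.154 CPM in the stage 3 sum, with INHA at 290.1 CPM. The median slope of the members was 0.03, against -0.03 for all genes.

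For the slope on CYP11A1, edgeR called 0% of 15636 genes and 0 members (1107 genes at an unadjusted p under 0.05), and DESeq2 called 521 genes and 1 member, STARD4. The estimates with the smallest p were negative. MSMO1 had a slope of -0.42 ± 0.15 (edgeR, adjusted p = 0.589), SC5D of -0.66 ± 0.25 (edgeR, adjusted p = 0.606), STARD4 of -0.89 ± 0.36 (edgeR, adjusted p = 0.622; DESeq2, -1.004 with adjusted p = 0.0412) and INSIG1 of -0.32 ± 0.22. The slope of STARD4 turned to 0.29 without gilt 201 and to 0.36 without the granulosa-rich libraries. The median slope of the members was -0.03, against 0.06 for all genes. With stage and gilt in the model, the slope of CYP11A1 on INHA was 0.19 ± 0.39 (edgeR, adjusted p = 0.998). That error is too wide to show whether the 2 granulosa genes track each other in the sums.

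Correlations between members from oocyte to oocyte were somewhat above those of genes in general. Over the 351 pairs of members the median correlation was 0.42, beside 0.31 over all pairs of 12639 genes. Without the mitochondrially encoded genes the medians were 0.25 and 0.20. On that scale the 4 highest pairs were HMGCS1 with INSIG1 (0.64), CYP51A1 with DHCR7 (0.64), TM7SF2 with DHCR7 (0.63) and MSMO1 with INSIG1 (0.60). All pairs share their libraries and depth, so these values are descriptions. FDFT1 correlated with HMGCS1 at 0.45 and with SQLE at 0.64 on CPM. All 27 members correlated negatively with the mitochondrial share on CPM (r from -0.61 to -0.15), and 9 of 27 correlated positively with it on nuclear CPM. CPM has the mitochondrial counts in its total, which favours a negative sign for any other gene. The values of all genes with the mitochondrial share were not computed. The part of that share in the correlations between members was not tested.

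Other genes of sterol supply were read from a list of 58 symbols, of which 53 were in the table and 49 were tested. None passed in any of the 5 comparisons by edgeR. DESeq2 called 5 of them on INHA, all with positive slopes: SCARB1, CYP27A1, STAR, STARD5 and GRAMD1A, the smallest adjusted p being 0.00046 for SCARB1. It called STAR alone on CYP11A1 (slope 1.197, adjusted p = 0.0392). These names were added after seeing the values. Over all 15636 genes DESeq2 called 497 on INHA and 521 on CYP11A1. STARD5 was at 0 counts in 46 of 55 libraries, with 65.5% of its summed CPM in 1 library. For STAR, 1 library of gilt 205 held 42.1% of the summed CPM. Its median was 0 nuclear CPM in granulosa-rich libraries and 0.939 in the others. For uptake, SCARB1, the receptor for high-density lipoprotein, had a median of 2.33 CPM. SCARB1 had medians of 217 nuclear CPM in granulosa-rich libraries and 4.08 in the others, and a slope on INHA of 1.12 ± 0.27 (edgeR, p = 0.000391, adjusted p = 0.385). LIPA, which frees cholesterol from its esters in lysosomes, had a median of 14.8 CPM. STAR, which brings cholesterol into mitochondria for steroid synthesis, was at 0 counts in 28 libraries.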

How the data were processed

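The authors deposited whole-number counts for each Ensembl gene and oocyte, which were read without any scaling. Named in the submitters' processing notes, without roles, are featureCounts, HISAT2 (2.1.0), StringTie (1.2.2) and Trim Galore (0.4.3). No source used here states the build, the annotation or the strandedness of counting, so positions are left out. The authors also deposited a length-scaled table under a TPM name. As read here it ends in mid-line and its column totals are unequal, so its unit could not be settled. Each column was rescaled to 1000000. As read, the table lacks 2382 genes, ACAT2, NPC1 and NPC2 among them. It served to order genes and as an alternative.

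Total counts per oocyte ran from 151104 to 38282850. Precision at low levels is limited by PCR copies without molecular identifiers, and a gene was taken as detected in an oocyte from 3 counts. Counts were summed per gilt and stage (19 sums) and tested two-sided with edgeR 4.0.16 in R 4.3.3 (TMM, filterByExpr by stage, quasi-likelihood F test, stage and gilt in the model). Benjamini-Hochberg adjustment ran over all genes tested, with 0.05 as the threshold. SE is the estimate divided by the square root of F. Slopes used log2(CPM + 1) of INHA or CYP11A1 in the same sum as a further term. Alternatives were DESeq2 1.42.0, no TMM factors, no filter, no mitochondrially encoded genes, no gilt term, each oocyte as a library and leaving out each gilt. Fits without the granulosa-rich, shallow or similar libraries were chosen after seeing the data. Some genes did not converge under DESeq2's default settings, and its counts of called genes shifted with those settings; a centred covariate and a higher iteration limit were chosen after seeing this, and DESeq2's counts are given with that reserve. Methods were tested on simulated data.

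Gilt is named in the labels, so sums pair by animal. Deviations from stage means had a mean r of 0.0141, 0.123, 0.137 and 0.124 between sums of gilts 201, 205, 801 and 803, and of -0.0300 between different gilts.

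All members are described. Fitted values are given for called members and otherwise for the 4 with the smallest p in a comparison; FDFT1, NSDHL, STARD4 and MVK in the stage 5 comparison were added after seeing values. Of the further pathway genes, STAR, SCARB1 and LIPA are named, and some others are not reported here. The members and lists were chosen with earlier results of these data known.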

Additional observations from a re-analysis of the deposited data

Results flagged for a closer look

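Over 112 groups of 4 sums (each of the 27 members, and their total, at each of stages 1 to 4), 11 held a sum far from the other 3 by Dixon's criterion on log2(TMM-scaled CPM + 1), which chance meets in about 1 group in 20. These are values with no explanation tested.

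Gilt 803 was the distant animal in 8 of the 11. It was high for HMGCS1 at stage 2 (76.8 CPM, others 2.40 to 3.96) and at stage 4 (45.8, others 3.73 to 4.54). It was also high for MSMO1 at stage 4 (187.7, others 21.7 to 31.6), ACAT2 at stage 1 (74.0, others 6.23 to 9.28) and STARD4 at stage 2 (37.9, others 0 to 0.271). It was low for FDFT1 at stage 2 (231 CPM, others 556 to 594), GGPS1 at stage 2 (3.82, others 40.5 to 60.0) and SCAP at stage 3 (10.98, others 51.7 to 60.1). In that animal 12 of 20 libraries were granulosa-rich, and the part of those libraries in these values was not tested.

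The other 3 were smaller departures. MVK at stage 1 was 18.4 CPM in gilt 801 (others 9.63 to 10.5), NSDHL at stage 3 was 67.2 CPM in gilt 801 (others 59.7 to 60.5), and SCAP at stage 2 was 29.6 CPM in gilt 201 (others 10.1 to 12.1).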

How the results depend on the processing

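The number of members called stayed at 0 in 61 of 65 refits over the 5 comparisons. For the slope on INHA it was 1 with DESeq2, 1 without the replicate block (gilt left out of the model) and 2 by oocyte (every oocyte its own library). For the slope on CYP11A1 it was 1 with DESeq2, which called 521 of 15636 genes. In the order given, the INHA fits called 497 of 15636, 503 of 15636 and 1018 of 12040 genes. The fit by oocyte takes oocytes of the same gilt as replicates, so its p values do not measure the spread between animals. ACAT2 passed in those 3 INHA fits, with slopes of 0.79, 1.08 and 0.93 (adjusted p = 0.0186, 0.00888 and 9.47e-06), and CYP51A1 passed by oocyte (0.43, adjusted p = 0.0435). The sign of 4 slopes changed. That of NPC1 on INHA was 0.12 without TMM factors, 0.0318 without the replicate block, 0.0799 by oocyte and 0.0249 without granulosa-rich libraries. On CYP11A1, MSMO1 gave 0.18 without the block and 0.0387 by oocyte, and INSIG1 gave 0.22 and 0.0718. STARD4 gave 0.48 and 0.00383 in the same fits and 0.36 without granulosa-rich libraries, and -1.41 to 0.29 when each gilt was left out in turn. The cause of these changes was not tested. The block changed no other call of a member. SREBF1, STARD4 and FDPS held under 3 counts in most libraries, so their values are uncertain. The part of depth in these low counts was not tested. Of the 19 sums, 4 hold 1 oocyte.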
